A study of Homo sapiens with 24 samples.

Results

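siCARLo-4, an siRNA against one of the CARLo long non-coding RNAs, was compared with a control siRNA in HCT116 cells. The comparison took every library titled HCT116 siCARLo-4 (3) and HCT116 siCTRL (3), that is 6 of the 24 libraries of the series, and all 189 endogenous genes of an nCounter cell cycle panel. Both groups were HCT116 cells given 50 nM siRNA with the transfection reagent Lipofectamine RNAiMAX, and TRIZOL was used to extract the total RNA. The labels give the control cells the same transfection with a control siRNA. The other HCT116 groups received siCARLo-1 v3, siCARLo-3, siCARLo-5 or siCARLo-7 v2 at the same concentration, with 3 libraries each, and serve here to show where siCARLo-4 differed. Per the series title, the question was which cell cycle genes change when these RNAs are knocked down. Each group rests on 1 cell line and 1 named siRNA reagent, and the labels do not say whether the 3 libraries of a group came from separate cultures, so that p-values measure the spread between these libraries, which may be technical.

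HCT116 is an epithelial colorectal carcinoma line. In such cells stress induces CDKN1A, whose product p21 binds and inhibits cyclin-dependent kinases, and thereby keeps the pocket proteins RB1, RBL1 and RBL2 active as repressors of E2F target genes. D-type and E-type cyclins with their kinases act against this block, JUN and MYC are immediate early transcription factors that drive G1 progression, and the replication and mitotic genes are transcribed as cells pass into S phase and G2. The nCounter assay counts transcripts by hybridisation to colour-coded probes without amplification, and because each probe captures its target with its own efficiency, levels are compared between libraries and not between genes.

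The endogenous counts of the 6 libraries ranged from 89835 to 195475, with 89835 to 130777 in siCTRL and 133885 to 195475 in siCARLo-4. Background, taken as the mean of the 8 negative probes plus 2 SDs, lay between 8.46 and 15.3 counts, and 168 to 176 genes per library were above it. Endogenous counts per positive control count were 9.64 ± 0.818 in siCARLo-4 and 10.8 ± 0.998 in siCTRL (SD, n = 3, two-sided exact permutation test p = 0.2, the smallest possible being 0.1). The spiked positive controls A and B are not touched by any siRNA, and their ratio was 2.19 ± 0.0448 in siCARLo-4 and 2.01 ± 0.155 in siCTRL (exact permutation p = 0.3, n = 3). Control libraries 1 and 2 were closer to each other than to control library 3 (chi-square per degree of freedom 1.18 against 2.92 to 2.93). The siCARLo-4 pairs lay at 1.73 to 2.13, whereas library 3 of siCARLo-1 v3, which enters only the shared estimate of spread and the comparisons with other siRNAs, stood apart from its group (50.2 and 56.2 against 2.60). No probe on the panel counts a CARLo transcript, so the knockdown itself could not be checked. In the authors' series-wide table the positive control sums were 8964 to 8967 for siCTRL and 12211 to 12212 for siCARLo-4. The sources used here do not say what libraries with like sums share, and between siCTRL and siCARLo-4 this set and the group cannot be told apart. The epithelial marker CDH1 was above background in all 6 libraries (131 to 235 normalised counts), and the mesenchymal marker TWIST1 was too low to be tested (0 to 6.76).

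After siCARLo-4, JUN, CDKN1A, the mitotic phosphatase gene CDC25B and the cyclin D1 gene CCND1 were higher than in the control, and the replication kinase gene CDC7, the break repair genes RAD50, MRE11A and BRCA1, the pocket protein gene RBL1 and MYC were lower. Of the 189 genes 178 were above background in enough libraries to be tested, and the edgeR quasi-likelihood test with Benjamini-Hochberg adjustment called 63 of them, or 35.4%, at an adjusted p under 0.05. Of these 32 were up (18%) and 31 down (17.4%). The change reached 1.5-fold for 20 genes (11.2%), 13 of them up and 7 down. In all 63 called genes the 3 siCARLo-4 libraries lay wholly above or below the 3 control libraries, a separation also seen for 108 of the 178 tested genes (60.7%), with siCARLo-4 higher in 52 (29.2%) and lower in 56 (31.5%). The log2 fold changes ran from -0.86 to 1.73 with a median of 0.00, and the median size of a called change was 0.48. The balance of rises and falls depends on the scaling. Counts scaled by the positive controls gave 13 up and 40 down with the median of all genes at -0.18, and the series-wide values gave 50 up and 1 down with the median at 0.26. Counts are means over bulk cultures, so that fewer cells in a phase and less transcript per cell cannot be told apart. All changes given here are relative to the TMM scaling, under which the median gene did not move.

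**Figure D1:**
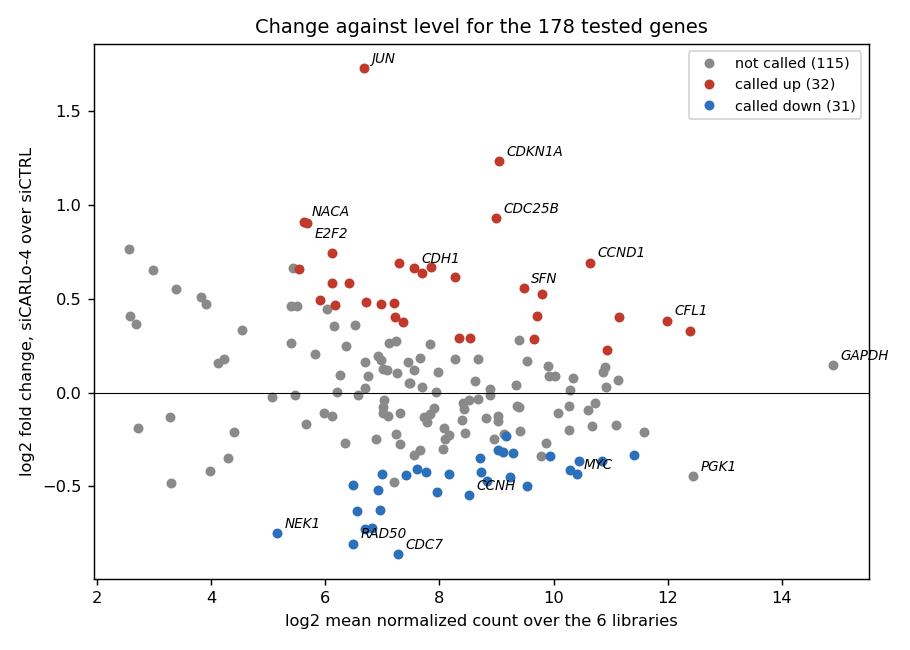
Each point is 1 of the 178 tested genes, with the log2 mean normalised count over the 6 libraries on the x axis and the log2 fold change of siCARLo-4 over siCTRL on the y axis. Red points are the 32 genes called up, blue points the 31 called down and grey points the 115 not called. JUN stands alone at 1.73, CDKN1A follows at 1.23, and CDC7 is lowest at -0.86.

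JUN, which encodes the AP-1 transcription factor c-Jun, changed most of all tested genes. Its normalised counts were 41.2, 38.0 and 64.9 in siCTRL libraries 1 to 3 and 169, 145 and 152 in siCARLo-4 libraries 1 to 3. Every siCARLo-4 library was thus far above the highest control. The log2 fold change was 1.73 ± 0.21 (SE), a 3.32-fold rise (edgeR adjusted p = 1.0e-05, n = 3 per group). MAPK8, which encodes the kinase JNK1 that phosphorylates c-Jun, was not called (0.18, adjusted p = 0.073). The JUN promoter is known as a target of c-Jun itself through an AP-1-like element, and the 250 bases before its start are shown because JUN moved furthest. They lie at chr1:58784048-58784297 on the minus strand of GRCh38.p14 (RefSeq), and the capitals mark the letters TGACATCA, which were searched on both strands and lie 67 to 60 bases before the start.
JUN: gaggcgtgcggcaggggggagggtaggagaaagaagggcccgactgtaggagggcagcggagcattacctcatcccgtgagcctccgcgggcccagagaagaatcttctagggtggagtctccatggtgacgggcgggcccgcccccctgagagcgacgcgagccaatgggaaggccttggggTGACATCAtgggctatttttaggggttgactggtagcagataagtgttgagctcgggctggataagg
The same letters occur in the windows of 2.91% of 27305 RefSeq genes and of 1.3% of the 154 tested genes that have a window.

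Among the stress response genes CDKN1A, SFN, MDM2 and GADD45A the changes did not go together. CDKN1A had 300.0, 312 and 338 normalised counts in siCTRL and 759.9, 750.0 and 721 in siCARLo-4. Both groups were tight and far apart, and the rise was 1.23 ± 0.07 on the log2 scale or 2.35-fold (adjusted p = 6.7e-10). SFN, the gene of 14-3-3 sigma, which holds cyclin B and CDK1 in the cytoplasm, went from 569.7, 551 and 609 to 827, 870.3 and 842. No library overlapped, and SFN rose by 0.56 ± 0.08 (adjusted p = 7.1e-05). The ubiquitin ligase gene MDM2 was not called, with 534, 552 and 548 counts in siCTRL and 510.3, 507 and 482 in siCARLo-4 (-0.12 ± 0.10, adjusted p = 0.31). Neither was the stress gene GADD45A, whose groups overlapped (-0.07 ± 0.08, adjusted p = 0.49).

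The CDK inhibitor list had 2 of 7 members up, 0 down and 5 not called (median 0.09). For comparison with this list and those below, 35.4% of all tested genes were called, 18% up and 17.4% down. Beside CDKN1A this was CDKN2B, the gene of the CDK4 and CDK6 inhibitor p15, with 50.0, 60.8 and 43.3 counts in siCTRL and 88.5, 88.3 and 84.6 in siCARLo-4. Its rise of 1.67-fold (0.74 ± 0.26, adjusted p = 0.030) was called only with all 3 siCARLo-4 libraries and with siCTRL libraries 1 and 3. Leaving out any of those 5 gave adjusted p from 0.058 to 0.096. CDKN1B, the gene of the inhibitor p27, had overlapping groups (78.4, 68.4 and 75.8 against 80.1, 76.8 and 80.4) and a difference of 0.09 (95% interval -0.20 to 0.38, adjusted p = 0.60).

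The D-type cyclins and their kinases divided. CCND1 rose from 1179.6, 1232 and 1252 normalised counts to 1878, 1994 and 2044, which is 1.62-fold (0.69 ± 0.05, adjusted p = 1.7e-08). All siCARLo-4 libraries lay well above the highest control. CDK6, which encodes one of the kinases that cyclin D1 activates, fell from 123, 116 and 101 to 75.4, 72.9 and 72.0 (-0.63 ± 0.21, 1.55-fold lower, adjusted p = 0.022). This call was lost without siCTRL library 1 or 2 or siCARLo-4 library 2 or 3 (adjusted p 0.058 to 0.085). CCND3 did not pass the test although its groups did not overlap (29.4, 38.0 and 39.2 against 53.1, 42.2 and 51.7, adjusted p = 0.056), and CDK4 was not called (0.17, adjusted p = 0.47). Among E-type cyclins with CDK2, the cyclin E2 gene CCNE2 fell from 158, 135 and 135 to 91.3, 110.1 and 95.8 (-0.52 ± 0.17, adjusted p = 0.024), a call lost without siCARLo-4 library 1 or 3 or siCTRL library 1 (0.073 to 0.11). CCNE1 was at 185, 189.9 and 193 against 214, 203 and 228, a difference of 0.18 that was not called (adjusted p = 0.27), nor was that of CDK2 (-0.13, adjusted p = 0.31).

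Of 8 E2F and DP factors 3 were up, 1 down and 4 not called (median 0.15), where 35.4% of all tested genes were called. E2F1, E2F2 and E2F3, the activators of the family, were the ones called up under the TMM scaling. E2F2 had 24.5, 37.0 and 47.4 counts in siCTRL and 63.3, 57.6 and 78.3 in siCARLo-4, a 1.87-fold rise (0.90 ± 0.24, adjusted p = 0.0064). The controls were widely spread among themselves, and without siCTRL library 1, the lowest, the rise was 0.68 (adjusted p = 0.055). E2F1, a driver of S phase entry, rose from 129, 134 and 104 to 158, 186 and 169.9 (0.48 ± 0.14, adjusted p = 0.013), and E2F3 by 0.40 ± 0.13 (adjusted p = 0.021). E2F1 lost its call without siCARLo-4 library 2 (adjusted p = 0.064) or siCTRL library 3 (0.063), and E2F3 without siCARLo-4 library 2 (0.077) or siCTRL library 2 (0.064). Positive control scaling removed the calls of E2F1 and E2F3, so that 1 of the 8 factors was up. E2F3 was also not called under reference gene or total count scaling. TFDP1, which encodes the DP1 partner that E2F proteins need to bind DNA, fell from 881, 832 and 899.7 to 617, 632 and 601 (-0.50 ± 0.11, adjusted p = 0.0022). TFDP2, the gene of a second partner, was not called in the other direction (0.26, adjusted p = 0.055).

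The pocket protein list had 0 up, 2 down and 1 not called of 3 (median -0.43). RBL1, the gene of the repressor p107, fell from 141, 125 and 122 to 56.8, 87.7 and 86.7, with siCARLo-4 library 1 lowest and no overlap (-0.73 ± 0.17, 1.66-fold lower, adjusted p = 0.0035). In the other 4 HCT116 siCARLo groups the RBL1 libraries lay at 45.9 to 116, also below the lowest control. RBL2, the gene of p130, which acts mostly in resting cells, fell from 158, 148 and 133 to 119, 88.9 and 120.2 (-0.43 ± 0.16, adjusted p = 0.036), but not without siCARLo-4 library 2 (adjusted p = 0.19) or siCTRL library 1 (0.13) or 2 (0.089). RB1 was at 301, 278 and 307 against 238, 239 and 240.5 and did not pass (-0.30, adjusted p = 0.087).

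E2F1, E2F2 and RBL1 are each known to be controlled by E2F proteins, and the 250 bases before their starts are shown because the first pair rose while RBL1 fell. All 3 windows are on the minus strand of GRCh38.p14 (RefSeq), at chr20:33686386-33686635 for E2F1, chr1:23531234-23531483 for E2F2 and chr20:37095998-37096247 for RBL1. Capitals mark the E2F letters TTTCCCGC, TTTCGCGC, TTTGCCGC or TTTGGCGC, searched on both strands.
E2F1: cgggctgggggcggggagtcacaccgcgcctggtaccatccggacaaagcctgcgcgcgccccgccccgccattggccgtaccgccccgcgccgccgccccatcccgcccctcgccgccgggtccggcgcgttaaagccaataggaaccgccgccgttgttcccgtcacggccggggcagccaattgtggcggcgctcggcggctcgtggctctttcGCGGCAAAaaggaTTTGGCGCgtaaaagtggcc
E2F2: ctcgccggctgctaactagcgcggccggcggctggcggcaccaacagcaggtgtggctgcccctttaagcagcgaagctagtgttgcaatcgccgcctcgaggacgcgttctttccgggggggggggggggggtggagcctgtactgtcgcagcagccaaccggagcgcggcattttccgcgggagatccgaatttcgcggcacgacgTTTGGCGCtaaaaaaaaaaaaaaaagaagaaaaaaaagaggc
RBL1: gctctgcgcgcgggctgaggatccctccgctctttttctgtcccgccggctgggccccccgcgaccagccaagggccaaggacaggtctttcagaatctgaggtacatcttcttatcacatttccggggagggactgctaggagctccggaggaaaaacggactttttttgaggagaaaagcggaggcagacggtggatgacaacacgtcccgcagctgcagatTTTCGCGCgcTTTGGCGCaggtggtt
E2F1 holds 1 match to TTTGCCGC on the opposite strand, 33 to 26 bases before the start, and 1 to TTTGGCGC at 20 to 13. E2F2 holds TTTGGCGC at 42 to 35, and RBL1 holds TTTCGCGC at 26 to 19 and TTTGGCGC at 16 to 9. Such a match is found in 3.4% of the 27305 RefSeq genes and in 14.9% of the 154 tested genes with a window. Among them it is found in 3 of 26 genes called up (11.5%), 8 of 27 called down (29.6%) and 12 of 101 not called (11.9%). These shares describe the letters in the windows and were not tested.

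CDC25B, the phosphatase gene whose product activates CDK1 at the entry to mitosis, rose from 340.2, 355 and 357 normalised counts to 645, 647 and 712. Each siCARLo-4 library was well above every control, and the rise was 1.91-fold (0.93 ± 0.07, adjusted p = 1.7e-08). PKMYT1, which encodes a kinase that holds CDK1 inactive, was higher too (50.0, 49.4 and 50.1 against 54.9, 72.9 and 80.4, 0.49 ± 0.15, adjusted p = 0.015). Its call was lost without siCARLo-4 library 2 (0.055) or 3 (0.088) or siCTRL library 2 (0.051). The mitotic kinase gene PLK1 did not pass although the groups did not overlap (579.5, 625 and 629 against 725, 773 and 722, adjusted p = 0.11). Of the 5 tested mitotic entry genes 2 were up, 0 down and 3 not called (median 0.28), where 35.4% of all tested genes were called.

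A-type and B-type cyclins with CDK1 had 0 up, 2 down and 3 not called of 5 (median -0.13). The share called over all tested genes was 35.4%. CDK1, the kinase gene of mitosis, went from 1606, 1673 and 1408 to 1220.0, 1298 and 1128 (-0.36 ± 0.13, adjusted p = 0.032), and the cyclin B2 gene CCNB2 from 622, 592 and 624 to 489.9, 466 and 519 (-0.32 ± 0.10, adjusted p = 0.020). Neither call was independent of single libraries. CDK1 lost it without siCTRL library 1 or 2 or siCARLo-4 library 1 or 3 (adjusted p 0.070 to 0.12), and CCNB2 without siCTRL library 1 or 3 or siCARLo-4 library 2 (0.052 to 0.083). The cyclin A2 gene CCNA2 was at 1102, 1127 and 1127 against 1061, 1087 and 969 (-0.11, 95% interval -0.39 to 0.18), and the cyclin B1 gene CCNB1 differed by 0.11 without a call (adjusted p = 0.46).

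The CDK-activating kinase, a complex of CDK7, cyclin H and MNAT1 that phosphorylates the cell cycle kinases, had 0 up, 2 down and 1 not called of 3 (median -0.32). The cyclin H gene CCNH fell from 427, 414 and 471 to 291, 294 and 309.7 (-0.55 ± 0.11, 1.46-fold lower, adjusted p = 0.0010). CDK7 fell from 706, 718 and 652 to 558, 562 and 541 (-0.32 ± 0.08, adjusted p = 0.0048).

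Of 6 spindle assembly checkpoint genes 1 was up, 3 down and 2 not called (median -0.31). BUB1B, whose product BubR1 inhibits the anaphase-promoting complex, went from 543, 555 and 495 to 379, 415 and 357 (-0.47 ± 0.12, adjusted p = 0.0051). BUB1B was also below the lowest control in every library of the other 4 HCT116 siCARLo groups (232 to 387). BUB3, the gene of its binding partner, fell by 0.37 on the log2 scale (adjusted p = 0.0018), and the kinase gene BUB1 fell by 0.35 (adjusted p = 0.0056). MAD1L1, which encodes the kinetochore anchor of MAD2, went the other way, from 92.2, 89.3 and 78.5 to 119, 116 and 131 (0.48 ± 0.14, adjusted p = 0.0090). Among securin, separase and cohesin genes, the separase gene ESPL1 rose from 105, 103 and 107 to 148, 150.4 and 138 (0.47 ± 0.13, adjusted p = 0.0080) and the cohesin gene SMC1A fell from 332, 342 and 322 to 252, 249.6 and 236 (-0.43 ± 0.07, adjusted p = 1.8e-04), while the other two were not called.

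Ubiquitin ligases mark cell cycle proteins for degradation. Of 12 subunits and activators of the anaphase-promoting complex 1 was up, 2 down and 9 not called (median -0.01), where 35.4% of all tested genes were called. ANAPC2, its cullin-like subunit, rose from 64.7, 49.4 and 52.8 to 82.0, 80.6 and 88.1 (0.58 ± 0.13, adjusted p = 0.0018). ANAPC1, the largest subunit, fell (435, 432 and 599 against 375, 344 and 369, -0.42 ± 0.14, adjusted p = 0.022), with siCTRL library 3 far above the others. Without that library its difference was -0.26 (adjusted p = 0.16), and the call was also lost without siCARLo-4 library 2 (0.083) or 3 (0.050). CDC16 fell by 0.23 (adjusted p = 0.022), a call lost without siCARLo-4 library 2 (0.13) or siCTRL library 1 (0.064) or 2 (0.061). In the list of the SCF ligase with its partner CDC34, 1 of 6 was up, 1 down and 4 not called (median -0.01). CDC34, the E2 enzyme of SCF, rose from 150.0, 174 and 211 to 281, 279.6 and 284 (1.59-fold, 0.67 ± 0.10, adjusted p = 9.1e-05). FBXW7, the F-box gene that targets cyclin E, MYC and JUN proteins for degradation, fell from 103, 103 and 108 to 68.0, 81.3 and 72.7 (-0.49 ± 0.16, adjusted p = 0.020), though not without siCARLo-4 library 1 (0.062) or 3 (0.058) or siCTRL library 3 (0.052).

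Of 13 origin recognition and firing genes 0 were up, 3 down and 10 not called (median -0.09), where 17.4% of all tested genes were called down. With the series-wide values 1 was up and 1 down, and the median was 0.17. CDC7, which encodes the kinase that fires origins by phosphorylating the MCM helicase, was the strongest fall of the tested genes. It had 213, 204 and 183 normalised counts in siCTRL and 108, 118 and 103 in siCARLo-4, so that every siCARLo-4 library was well below the lowest control. The log2 fold change was -0.86 ± 0.17, or 1.82-fold lower (adjusted p = 9.0e-04). In the other 4 HCT116 siCARLo groups the CDC7 libraries lay at 52.2 to 132, also below the lowest control. ORC1, the gene of the largest origin recognition subunit, fell from 230.4, 267 and 253 to 168, 192 and 197 (-0.42 ± 0.12, adjusted p = 0.012, or 0.056 without siCTRL library 2). The helicase loader gene CDC6 was called at -0.31 (adjusted p = 0.040), a call lost without any 1 of the 6 libraries (0.055 to 0.14).

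Of the 6 MCM helicase genes MCM6 and MCM4 were lower and 4 were not called (median -0.03). Over all tested genes 35.4% were called, and 17.4% were called down. With the series-wide values none of the 6 was called (median 0.23). MCM6 fell from 696, 699.8 and 701 to 529, 516 and 487 (-0.45 ± 0.09, adjusted p = 7.2e-04). MCM4 fell from 1391, 1532 and 1387 to 1014, 1103 and 1122 (-0.41 ± 0.10, adjusted p = 0.0051). The polymerase alpha and replication protein A lists were added after the values were seen. POLA2, a subunit gene of the primase-associated DNA polymerase alpha, fell by 0.41 (adjusted p = 0.0074), and was not called with the series-wide values. RPA1, which encodes the large subunit of the single-strand binding protein, rose from 739, 731 and 709 to 869.8, 899.7 and 890.0 (0.29 ± 0.07, adjusted p = 0.0045). Its call was lost under positive control, reference gene and total count scaling. CDC45, a component of the active helicase, did not pass (-0.33, adjusted p = 0.064).

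The break repair list had 0 up, 3 down and 1 not called of 4 (median -0.67), and the median was negative under each scaling tried (-0.86 to -0.44). With the series-wide values, where the median was -0.44, none of the 4 was called. RAD50 and MRE11A encode partners in the complex that binds and trims broken DNA ends. RAD50 fell from 102, 126 and 115 normalised counts to 66.1, 71.0 and 58.7 (-0.81 ± 0.18, 1.75-fold lower, adjusted p = 0.0018). MRE11A fell from 130.4, 130.1 and 165 to 64.3, 105 and 82.5 (-0.72 ± 0.18, 1.65-fold lower, adjusted p = 0.0039), with siCARLo-4 libraries more spread than for RAD50 but all below the controls. BRCA1, a mediator of recombination repair, fell from 136, 162 and 154 to 111, 96.0 and 88.1 (-0.63 ± 0.17, 1.54-fold lower, adjusted p = 0.0083). All 4 tested DNA damage kinases were without a call (median -0.21), with ATR at 179, 172 and 164 against 119, 138 and 112 (-0.48 ± 0.22, adjusted p = 0.099), PRKDC at -0.20 (0.099), CHEK1 at -0.22 (0.43) and CHEK2 at -0.12 (0.35). ATM, at 4.75 to 6.86 counts in siCTRL and 1.86 to 2.10 in siCARLo-4, was too low to be tested. Without the filter on low counts ATM was called down (-1.56).

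MYC, which lies in the chromosomal region of the CARLo transcripts, fell from 1596, 1624 and 1457 normalised counts to 1124, 1202 and 1129.8. The groups were well apart, and the fall was 1.35-fold (-0.44 ± 0.06, adjusted p = 2.8e-05). With the series-wide values it was -0.18 and not called (adjusted p = 0.36). EP300, a histone acetyltransferase gene, rose from 185, 163 and 138 to 229, 273 and 259 (1.56-fold, 0.64 ± 0.15, adjusted p = 0.0026). The tyrosine kinase gene ABL1 rose from 118, 106 and 138 to 216, 179 and 186 (1.61-fold, 0.69 ± 0.11, adjusted p = 1.0e-04). ABL1 was also above the highest control in every library of the other 4 HCT116 siCARLo groups (157 to 227). None of the 7 tested histone deacetylase genes was called (median 0.12).

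Of the other genes that changed at least 1.5-fold, RPS6KA1, which encodes a ribosomal S6 kinase downstream of ERK, rose from 278, 254 and 200.2 to 373, 357 and 401 (0.61 ± 0.10, 1.53-fold, adjusted p = 1.6e-04). CDH1, the E-cadherin gene, rose from 131, 144 and 162 to 228, 235 and 227 (0.66 ± 0.16, 1.58-fold, adjusted p = 0.0030). CDAN1, the gene mutated in a congenital anaemia, rose from 38.2, 37.0 and 32.5 to 55.9, 57.0 and 58.7 (0.66 ± 0.20, 1.58-fold, adjusted p = 0.013). In these 3 genes no siCARLo-4 library reached down to a control. The probe named NACA rose 1.88-fold (36.3, 33.2 and 32.5 against 69.8, 58.9 and 65.0, 0.91 ± 0.17, adjusted p = 5.3e-04), but NACA and NACAP1 transcripts are nearly identical, so which of them it counts is uncertain, and the probe named NACAP1 was not called (-0.21, adjusted p = 0.12). NEK1, a kinase gene of cilia and DNA repair, fell from 52.0, 45.6 and 35.2 to 32.6, 27.5 and 21.0 (-0.75 ± 0.24, 1.68-fold lower, adjusted p = 0.020), with the lowest control just above the highest siCARLo-4 library. Its call was lost without siCTRL library 1 or 2 or siCARLo-4 library 3 (0.058 to 0.11). At the 1.5-fold limit, RPS6KA1 and BRCA1 lay just inside, and GUSB and ANAPC2 (both 0.58) and CCNH (-0.55) just outside.

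**Figure D2:**
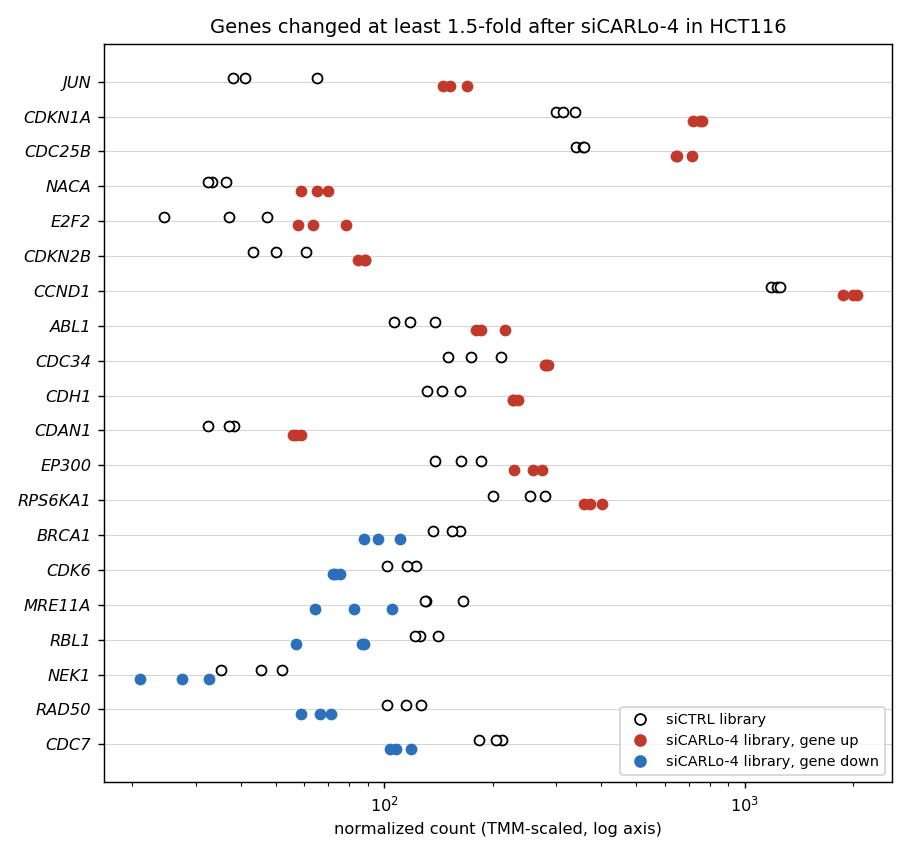
Normalised counts on a log axis of the 20 genes that were called and changed at least 1.5-fold, 1 gene per row. Open circles are the 3 siCTRL libraries and filled circles the 3 siCARLo-4 libraries, red for the 13 genes up and blue for the 7 down. In each row the 3 filled circles lie wholly to one side of the open circles, with the narrowest gap in NEK1 (32.6 against 35.2).

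The 14-3-3 genes, whose products bind phosphorylated proteins such as the CDC25 phosphatases, had 4 up, 1 down and 2 not called of 7 (median 0.23), but 1 up and 2 down under positive control scaling. Beside SFN, YWHAH rose from 669.7, 723 and 781 to 971, 943 and 962 (0.41 ± 0.08, adjusted p = 6.1e-04), YWHAZ rose by 0.33 and YWHAQ by 0.23. YWHAE fell from 3006, 2990.1 and 3071 to 2459, 2308 and 2438 (-0.33 ± 0.06, adjusted p = 1.8e-04). Of the TGF-beta ligands and SMADs SMAD4, the shared mediator of that pathway, was lower (281, 269.7 and 326 against 218, 192 and 196, -0.53 ± 0.10, adjusted p = 3.7e-04), and the other 5 were not called (median -0.17). Lists assembled after the values were seen held the trafficking GTPase genes ARF3 (0.52) and ARF1 (0.40), both up, the nuclear export factor gene NXT1, down (198, 183 and 211 against 135, 144 and 155, -0.44 ± 0.13, adjusted p = 0.014, or 0.052 without siCTRL library 3), and the actin-severing factor gene CFL1, up (3439, 3567 and 3626 against 4618, 4616 and 4638, 0.38 ± 0.06, adjusted p = 9.6e-05). The phosphatase gene CDC14A was called up (60.8, 57.9 and 62.2 against 73.6, 93.4 and 81.1, 0.47 ± 0.16, adjusted p = 0.030), but without siCARLo-4 library 2 or 3 or any 1 control library it was not (0.054 to 0.15). Of 7 reference genes GUSB was up, HPRT1 down (-0.34, adjusted p = 9.6e-05) and 5 not called (median 0.05). PGK1 lay at -0.45 without a call (adjusted p = 0.13).

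**Figure D3:**
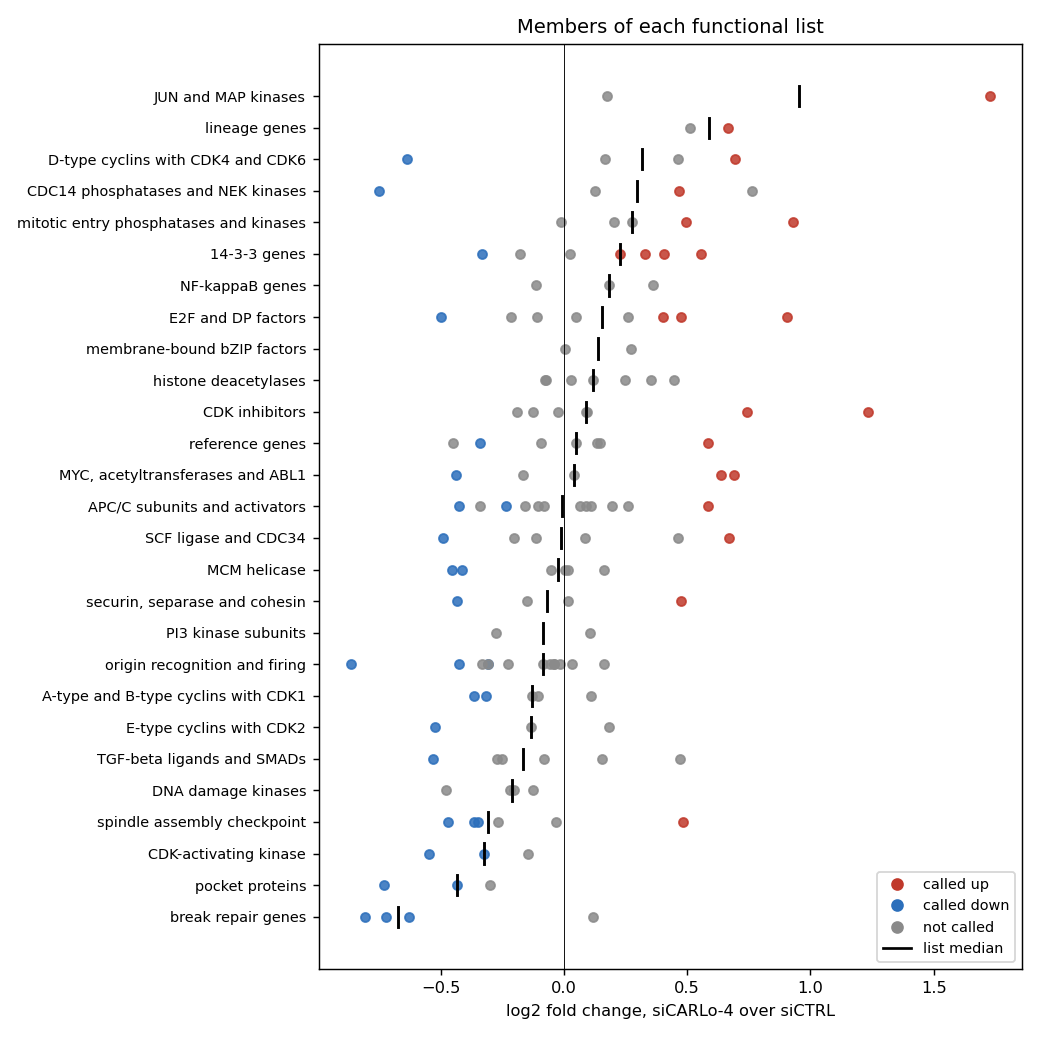
Log2 fold changes of siCARLo-4 over siCTRL for the tested members of 27 functional lists, ordered by their medians (black bars). Red points are genes called up, blue points genes called down and grey points genes not called. Break repair genes have the lowest median (-0.67) with 3 of 4 members called down, and the pocket protein (-0.43), CDK-activating kinase (-0.32) and spindle checkpoint (-0.31) lists follow.

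The other HCT116 siCARLo groups were used to ask which levels differed between siRNAs, without the control libraries. siCARLo-4 differed from the mean of the other 4 groups in 70 of 178 genes (39.3%), 39 higher (21.9%) and 31 lower (17.4%), by the same edgeR fit and adjustment. The split was 47 higher and 16 lower with positive control scaling, 49 and 21 with reference genes, and 16 and 22 with the series-wide values. Higher than each of the other 4 groups in 4 separate tests were 7 genes (3.93%), namely CCNA2, CDC14A, CDC23, CDC25B, CFL1, PIK3R1 and YWHAH. Lower than each were 4 genes (2.25%), namely FBXW7, GADD45B, MYC and NXT1. Without library 3 of siCARLo-1 v3, all 7 and all 4 remained, PLK1, PTPRA and SMAD4 were added, and the difference from the mean of the 4 groups was called for 92 genes (50 higher and 42 lower).

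CDC25B had 668 ± 38.2 normalised counts in siCARLo-4 (SD, n = 3) against 334 ± 20.9 with siCARLo-1 v3, 241 ± 7.73 with siCARLo-3, 339 ± 14.5 with siCARLo-5 and 408 ± 27.9 with siCARLo-7 v2, and 351 ± 9.24 in siCTRL. It was thus far above every other HCT116 group, and the difference from the mean of the other siRNAs was 1.04 ± 0.05 (adjusted p = 3.7e-11). MYC had 1152 ± 43.3 counts in siCARLo-4 and 1559 ± 89.3 in siCTRL. In the same 4 groups MYC was at 2666 ± 49.3, 1498 ± 72.7, 1809.9 ± 74.7 and 1797 ± 45.6. siCARLo-4 was the lowest of the 6 groups (-0.72 ± 0.05 against the mean of the 4, adjusted p = 1.3e-09). It was lower than siCARLo-3, the nearest of them, by 0.38 ± 0.06 on the log2 scale (adjusted p = 4.2e-05).

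For a second kind of gene siCARLo-4 stood apart from the other siRNAs while lying near the control. CDC23, a subunit gene of the anaphase-promoting complex, had 404 ± 9.13 counts in siCARLo-4 and 385 ± 28.5 in siCTRL, a difference of 0.06 with a 95% interval of -0.11 to 0.24 (adjusted p = 0.56). In the other siCARLo groups it was at 239 ± 22.5, 119.9 ± 10.2, 219 ± 11.6 and 199 ± 16.9, so that siCARLo-4 exceeded their mean 2.15-fold (1.10 ± 0.07, adjusted p = 2.7e-10). PIK3R1, the gene of the regulatory subunit p85 alpha of PI3 kinase, had 158 ± 17.4 counts against 111 to 53.9 in the group means of the others and 146 ± 14.7 in siCTRL (0.99 ± 0.14 against their mean, adjusted p = 1.4e-05, and 0.10 against the control, 95% interval -0.26 to 0.47). CCNA2 likewise had 1039 ± 62.1 counts against 482 to 815 (0.57 ± 0.11, adjusted p = 2.5e-04). GADD45B, a stress gene, was at 44.3 ± 4.06 in siCARLo-4 and 43.7 ± 6.78 in siCTRL against 68.1 to 89.4 in the others (-0.75 ± 0.14, adjusted p = 1.9e-04), with an interval of -0.40 to 0.38 against the control. Not every library of the other groups lay away from the control. Library 3 of siCARLo-1 v3 was at 137 for PIK3R1, within the control range of 136 to 163. For GADD45B that library was at 54.9, near the highest control (50.0).

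FBXW7 was at 74.0 ± 6.73 in siCARLo-4 and between 108 and 159 in the other siCARLo groups (-0.89 ± 0.12 against their mean, adjusted p = 1.4e-05). YWHAH was at 959 ± 14.7 against 414 to 707 (0.70 ± 0.06, adjusted p = 3.3e-08). CFL1 differed by 0.50 ± 0.05 (adjusted p = 7.2e-08), CDC14A by 0.72 ± 0.12 (adjusted p = 1.2e-04) and NXT1 by -0.62 ± 0.10 (adjusted p = 1.0e-04). The largest further differences from the mean of the 4 groups were rises of TGFB3 (0.91), E2F1 (0.80), E2F2 (0.74) and ATF6B (0.71), and lower levels of CCNB3 (-0.78), TGFB1 (-0.77), RAD50 (-0.70), GADD45A (-0.70) and SFN (-0.69). TGFB3 and CCNB3 had few counts, with means of 18.3 and 9.10 in siCARLo-4, close to background. None of these 9 genes differed from all 4 groups taken singly.

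**Figure D4:**
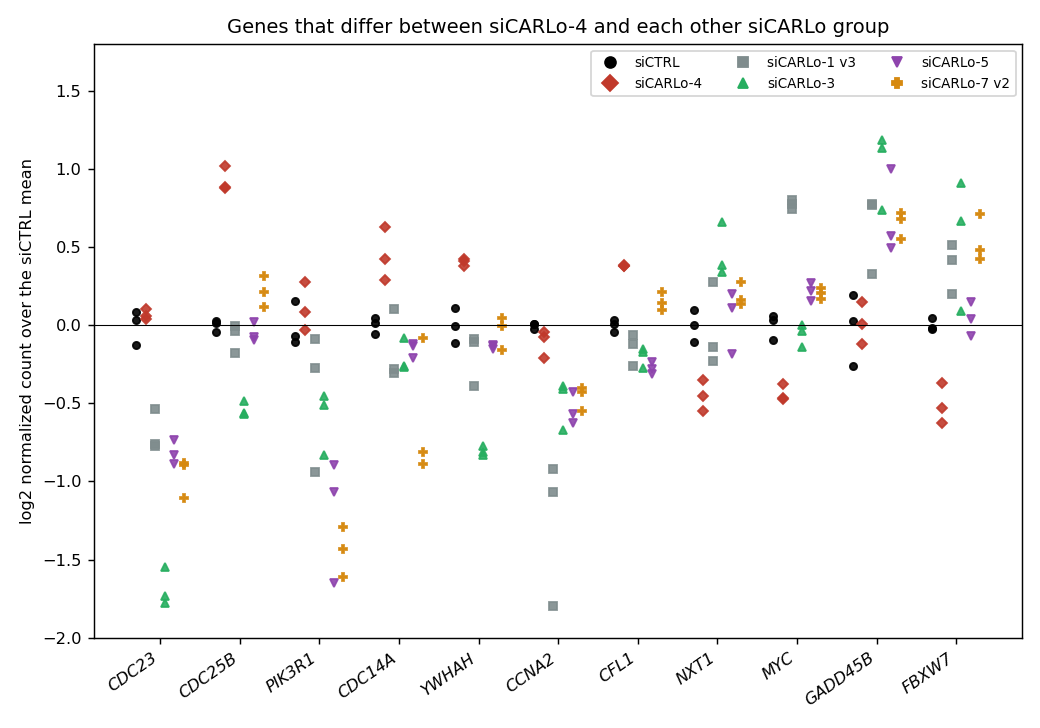
Normalised counts on a log2 scale relative to the siCTRL mean for the 11 genes in which siCARLo-4 differed from each of the other 4 HCT116 siCARLo groups. Each symbol is 1 library, with black circles for siCTRL and red diamonds for siCARLo-4. For CDC23, PIK3R1, CCNA2 and GADD45B the red diamonds lie among or next to the black circles. The other groups lie mostly away from them. Library 3 of siCARLo-1 v3, however, lies among the black circles for PIK3R1 and near them for GADD45B. For CDC25B and MYC the red diamonds lie apart from all others.

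The level of stress response genes differed too. CDKN1A was at 744 ± 20.3 counts in siCARLo-4 against 1626 ± 177 with siCARLo-1 v3, 1799 ± 49.9 with siCARLo-3, 905 ± 25.6 with siCARLo-5 and 471 ± 13.3 with siCARLo-7 v2. It was thus lower than in siCARLo-1 v3, siCARLo-3 and siCARLo-5 and higher than in siCARLo-7 v2 (adjusted p from 4.9e-11 to 0.0031). MDM2 had 499.6 ± 15.6 counts against 751 ± 116, 1039 ± 90.3, 385 ± 21.1 and 788 ± 52.9, and GADD45A 640.3 ± 22.1 against 969 ± 95.3, 1825 ± 134, 613 ± 44.4 and 1073 ± 32.7. JUN was at 156 ± 12.5 counts in siCARLo-4 and 158 ± 6.47 in siCARLo-3, which were not told apart (-0.02, adjusted p = 0.93), and was higher than in siCARLo-1 v3 (85.6 ± 26.3), siCARLo-5 (70.5 ± 11.2) and siCARLo-7 v2 (111 ± 22.2). CCND1 in siCARLo-4 was below the mean of the others by 0.33 (adjusted p = 7.2e-06) and did not differ from siCARLo-5 beyond error (-0.07, adjusted p = 0.32).

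In the authors' series-wide table siCARLo-1 v3 and siCARLo-3 have the same positive control sums as siCARLo-4, 12210 to 12212, whereas siCARLo-5 and siCARLo-7 v2 have 16033 to 16034. The comparison of siCARLo-4 with the mean of siCARLo-1 v3 and siCARLo-3 stays within 1 set. It called 83 genes (46.6%), 47 higher (26.4%) and 36 lower (20.2%), and 98 without library 3 of siCARLo-1 v3 (54 higher and 44 lower). With positive control scaling the split was 67 higher and 14 lower, and with the series-wide values 66 and 14. The largest differences were E2F1 (1.25 ± 0.14, adjusted p = 7.3e-07), with 171 ± 13.7 counts in siCARLo-4 against 35.9 ± 1.71 in siCARLo-3 and 144 ± 28.4 in siCARLo-1 v3, then CDC23 (1.25), CDC25B (1.24), TGFB3 (1.15), ESPL1 (1.06), ATF6B (1.05), E2F2 (0.97) and RPS6KA1 (0.91). On the lower side were CDKN1A (-1.20 ± 0.06, adjusted p = 2.9e-11), CCNB3 (-1.12), GADD45A (-1.06), FBXW7 (-1.00), TGFB1 (-0.94), GADD45B (-0.83), MDM2 (-0.82) and RAD50 (-0.81). MYC differed by -0.79 ± 0.05 (adjusted p = 5.6e-10). E2F1 and ATF6B differed from siCARLo-3 and were not called against siCARLo-1 v3 (0.25, adjusted p = 0.14, and 0.33, adjusted p = 0.057). The siCARLo-4 libraries also overlapped those of siCARLo-3 for RAD50 and CCNB3, and those of siCARLo-1 v3 for E2F2 and TGFB1.

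How far the calls against the control depend on the scaling was examined for every gene. Under all 19 other ways of processing 12 of the 63 genes kept their call and direction. These were JUN, CDKN1A, CDC25B, CCND1, NACA, ABL1, CDC34, CDH1, EP300, RPS6KA1 and SFN, all up, and CDC7, down. The series-wide values removed the calls of 30 falls, that is of all but CDC7, and positive control scaling removed those of 19 rises. In the alternatives that scale the raw counts 29 genes kept their call throughout. The series-wide values carry the ratio of the positive control sums of the groups, which is 0.45 on the log2 scale for siCARLo-4 over siCTRL, and the median gene lies 0.26 higher in them.

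**Figure D5:**
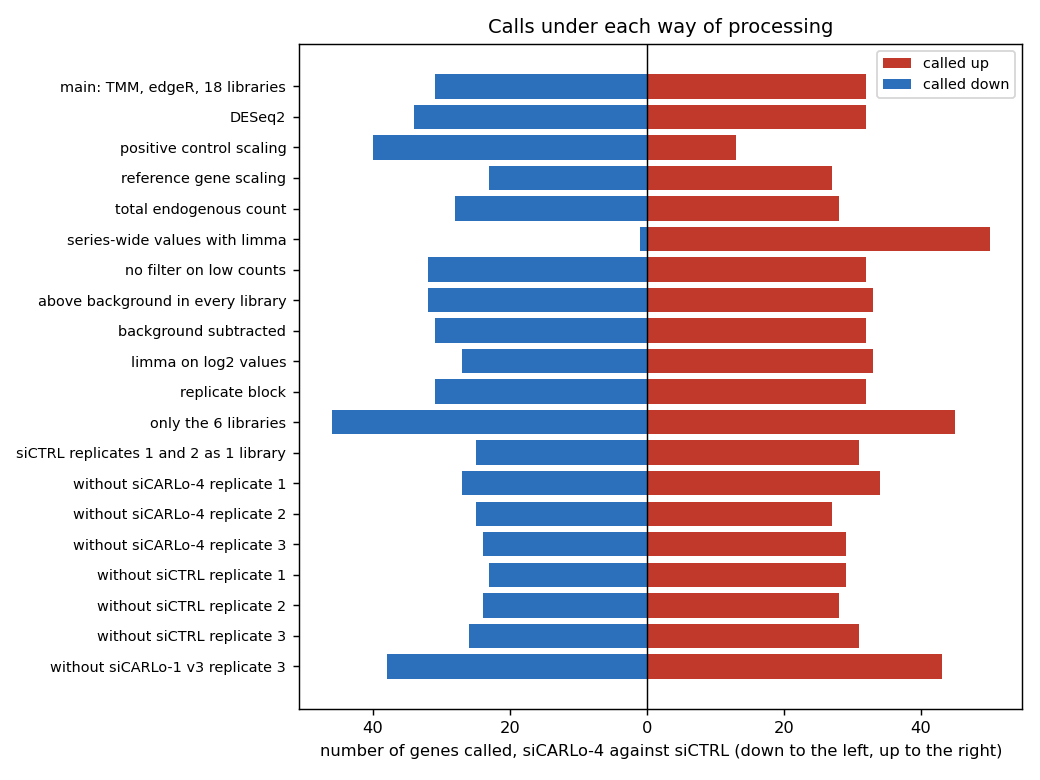
Number of genes called for siCARLo-4 against siCTRL under each way of processing, with rises drawn to the right and falls to the left of 0. The upper bar is the edgeR fit with TMM scaling (32 up, 31 down). Positive control scaling (13 up, 40 down) and the series-wide values (50 up, 1 down) are the settings in which one direction prevails.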

How the data were processed

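Transcripts of 189 endogenous genes were counted on the nCounter platform in the libraries, beside 6 positive and 8 negative control probes. The group tables hold raw molecule counts as deposited by the authors. The deposited series-wide table holds a score, values that the authors scaled by the positive controls, and was used only as an alternative. The sources used here do not give the image processing, and 0 columns belonged to no library. Of the probe accessions 178 matched the RefSeq gene table, 11 did not and 2 matched another symbol.

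Counts of all 18 HCT116 libraries were scaled by TMM over the endogenous genes, and normalised counts are counts at the mean scaled library size. A gene was tested if above background (negative mean plus 2 SDs) in at least 3 of the 18 libraries. The edgeR quasi-likelihood test used group means and, for each gene, a spread shared by all groups. As a summary over genes, the common dispersion was 0.00828, a coefficient of variation of 9.10%. Benjamini-Hochberg adjustment was over the 178 genes of each comparison, with a call at 0.05. Values after ± are SEs beside log2 differences and SDs beside means. Single values per library were compared by exact permutation. Of the tested genes 46 had control means below 100 counts, and 11 of those were called. Counting error is largest there.

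Named genes were those called at 1.5-fold or more, MYC, CDKN1A, CDKN1B, CCND1, CCNE1, E2F1 and CDK1, members of 28 functional lists, and the 8 largest differences each way from other siRNA groups. Members and lists were chosen with earlier results of these data known, and 7 further lists were added after seeing the values. Same-numbered siCTRL and siCARLo-4 libraries did not deviate together (correlations -0.12, 0.16 and -0.11), so numbers were not treated as pairs. Some items of the panel are not reported here. Alternatives were DESeq2, limma, other scalings, filters, background subtraction, a replicate block, fewer libraries and each library left out. The edgeR steps were tested on simulated data. Promoter windows are the 250 bases before the RefSeq start (GRCh38.p14), scanned for exact motifs of 8 letters on both strands. Models were fitted in R 4.3.3 with edgeR 4.0.16, and in alternatives with DESeq2 1.42.0 and limma 3.58.1. Sequences and plots were handled in Python 3.11.15 with matplotlib 3.10.9, pandas 2.3.3 and NumPy 2.4.6.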

Additional observations from a re-analysis of the deposited data

How the results depend on the processing

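Against siCTRL the number of called genes was 63 and lay between 50 and 91 under 19 alternatives. DESeq2 gave 66, total counts 56, reference genes 50, positive controls 53, series-wide values 51, limma 60, background subtraction 63, no filter 64 and the strict filter 65. The 6 libraries alone gave 91, and siCTRL libraries 1 and 2 as 1 library gave 56. Taken as 1 library they left CCNE2, CDK6, CDK1, RBL2, CDC6, CDC16 and CDC14A without a call. Leaving out 1 library each gave 52 to 61. With the replicate block 63 genes were called (32 up, 31 down), 62 of them shared, and CDC6 lost its call. Same-numbered libraries were not shown to be pairs. Without siCARLo-1 v3 library 3, an alternative chosen after seeing the data, 81 were called. Against the mean of the other siRNAs 70 genes were called, 54 to 63 without 1 siCARLo-4 library, 65 with the replicate block and 38 with the series-wide values. Against siCARLo-1 v3 and siCARLo-3 the 83 calls became 66 to 73 without 1 siCARLo-4 library and 79 with the replicate block.

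Genes not named in this report also changed sign and are not listed. Among the named genes, log2 differences from siCTRL that changed sign belonged to genes without a call, apart from CDC16 (0.022, adjusted p = 0.91, with the series-wide values). With those values CCNA2 (0.15), CCNB3 (0.064), CDK2 (0.12), CHEK1 (0.044), CHEK2 (0.11), GADD45A (0.19), GADD45B (0.27), MDM2 (0.13), NACAP1 (0.045) and PRKDC (0.056) turned positive. With positive control scaling CCNB1 (-0.074), CCNE1 (-0.0065), CDC23 (-0.12), CDK4 (-0.040), CDKN1B (-0.084), MAPK8 (-0.0027), PIK3R1 (-0.074) and TGFB3 (-0.015) turned negative. GADD45B, at -0.01, also turned with limma (0.025), the replicate block (0.0061) and siCTRL libraries 1 and 2 as 1 (0.014), and ran from -0.11 to 0.096 without 1 library. Likewise CCNB3 ran from -0.39 to 0.053 and TGFB3 from -0.21 to 0.41. The shift of all genes under these scalings is part of each value. Low counts limit CCNB3 and TGFB3 most.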
